A study of Homo sapiens with 4 samples.

Results

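The tallest autosomal peaks of a differential m6A map are described here, those with at least 40 sequenced fragments over their summit. N6-methyladenosine (m6A) is a methyl mark that a nuclear writer complex places on adenosines of mRNA and other RNA, largely while the RNA is being transcribed. The question behind the data is how m6A maps compare when RNA polymerase II (RNAPII), which makes these transcripts, moves along genes slowly. MeRIP-seq fragments RNA, pulls down the pieces bound by an m6A antibody and sequences them, so a tall peak is a site from which many distinct fragments were recovered.

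The study compared HEK293 cells, a human embryonic kidney line, that carried a slow-elongating RNAPII (slow, genotype labelled as an alpha-amanitin mutant of the polymerase) with control cells labelled wild type (WT), with 2 immunoprecipitated libraries of each. Treatment was the same throughout: 24 h of doxycycline (1 µg/ml), followed by 42 h in which α-amanitin (2.5 µg/ml), a toxin that blocks sensitive RNAPII, was present as well. The labels do not tell whether libraries of the same genotype were made from independent cultures, nor which polymerase the WT cells relied on under α-amanitin, although the design text speaks of cells expressing α-amanitin mutants in general. The identity of the cells was not checked, since the files hold peaks and no gene levels.

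Each slow library was set against the WT library of the same number, in both directions, which gave 4 lists of peaks. Peaks called with a slow library as the treatment are termed slow-higher, and those called with a WT library WT-higher. No input library entered the calls, so a difference in m6A and a difference in the amount of the transcript cannot be told apart at any peak. The libraries held 698050 and 547402 reads in slow and 1695246 and 1136611 in WT for pairs 1 and 2 after at most 1 read per position and strand was kept, and 92% to 96% of reads had been dropped as redundant. WT libraries were therefore 2.43 and 2.08 times as deep as their slow partners, and the caller scaled them down so that 1 WT fragment counted as 0.412 and 0.482. No annotation of hg19, the genome build of the files, was used here, so regions are given by position and no gene is named.

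Members were chosen on measured values: the pileup at the summit, with the scaling of WT libraries undone and rounded to whole fragments, had to reach 40. Of 4889 peaks in the 4 lists, 4347 were autosomal and outside chr19:36759307-36800430 and chr19:37759760-37797177, which the rule leaves out, and 792 of these were members. Pair 1 held 267 slow-higher and 241 WT-higher members, and pair 2 held 120 and 164. These were 16.2% and 10.4% of the autosomal slow-higher peaks of pairs 1 and 2, and 27.7% and 24.4% of the WT-higher ones. Just inside the minimum, 37 members had exactly 40 fragments, with folds from 2.29 to 12.1. Just outside it, 33 peaks had 39 fragments, with folds from 2.53 to 20.4.

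Height and fold measured different things. The fold is the caller's ratio of treatment pileup to local control background after scaling, with 1 added to each, for 1 library against 1 library and without an error of its own. Members had a median fold of 3.44 and 3.65 in the slow-higher lists and of 5.27 and 5.26 in the WT-higher lists. The peaks below 40 fragments had higher median folds in all 4 lists, namely 6.80 and 6.83 on the slow-higher side and 7.09 and 7.13 on the WT-higher side. A fold of at least 10 was reached by 25 of 267 and 13 of 120 slow-higher members and by 26 of 241 and 21 of 164 WT-higher members. Folds under 3 were found at 95 and 37 slow-higher members against 15 and 14 WT-higher members. All of these values come from the calls that chose the members and are a description.

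The control library separated the 2 directions. At slow-higher members the WT control had a median background of 36 fragments in pair 1 and 30 in pair 2, counted before scaling, against 1 and 0.273 at slow-higher peaks under 40 fragments. At WT-higher members the slow control had a median of 3 and 4 fragments, against 0.141 and 0.140 at WT-higher peaks under 40 fragments. Tall slow-higher peaks were thus mostly sites where the WT library also held many fragments, and tall WT-higher peaks were sites where the slow library held few. A control background of 20 fragments or more lay under 211 of 267 and 85 of 120 slow-higher members, and under 0 of 241 and 3 of 164 WT-higher members. The deeper library is the control in the first case and the treatment in the second, so depth and direction cannot be told apart in this contrast.

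At some slow-higher members the WT library held as many fragments as the slow library or more before scaling. This was so at 26 of 267 members in pair 1 (9.74%) and at 4 of 120 in pair 2 (3.33%), all with folds between 1.83 and 2.33. These members are slow-higher only after the WT library is scaled down. No WT-higher member had a control background as high as its own fragments, 0 of 241 and 0 of 164. The scaling fixes this outcome, since WT pileups had to exceed the slow background after being scaled down. Of the 26 in pair 1, 8 had a slow-higher peak in pair 2, and all 4 of pair 2 had one in pair 1.

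**Figure D1:**
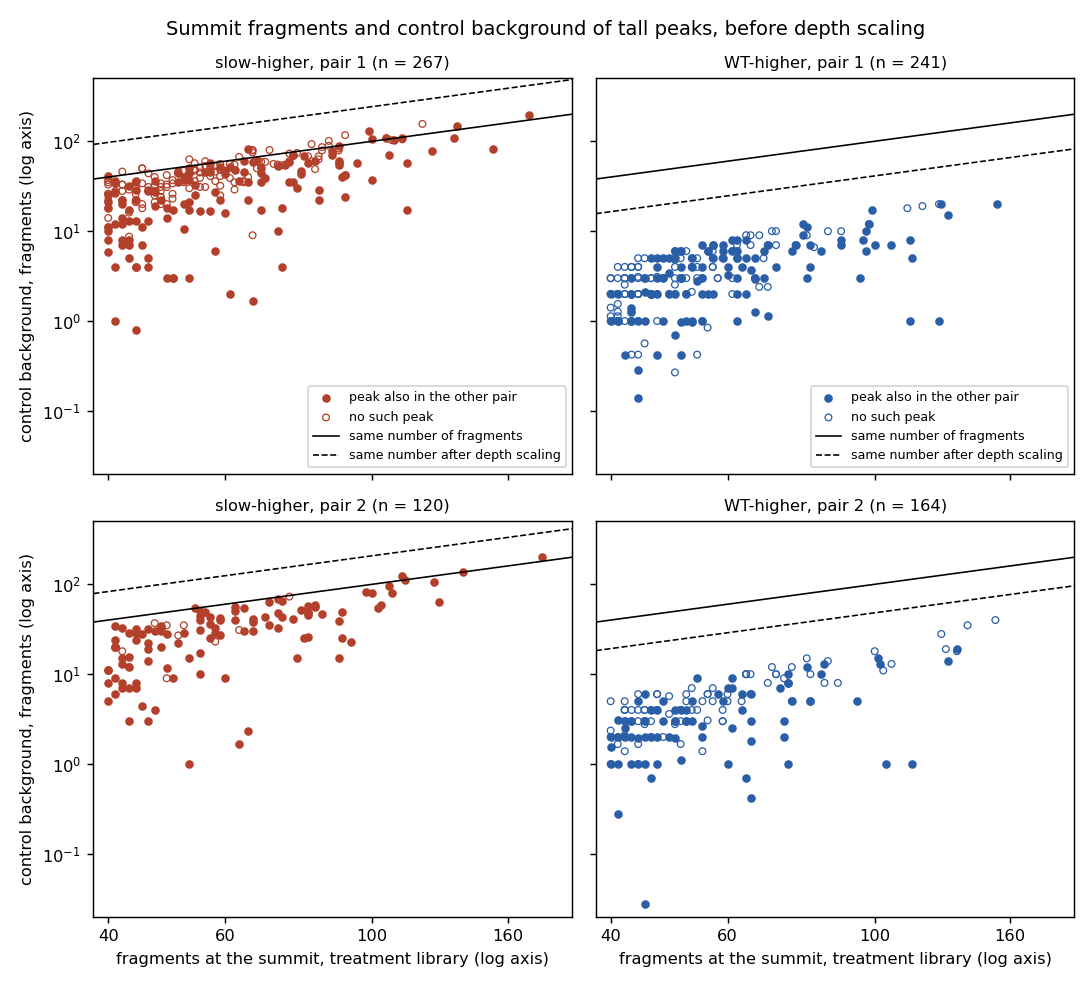
Fragments at the summit of each member in the treatment library (horizontal, log axis) against the local background in the control library before scaling (vertical, fragments, log axis), 1 panel per list. Filled points have a same-direction peak in the other pair, open points have none, the solid line marks equal fragments and the dashed line equal fragments after depth scaling. Most slow-higher members lie near the solid line, with medians of 36 and 30 control fragments, while WT-higher members lie far below it, with medians of 3 and 4.

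Within each list the control rose with the height of the peak. Spearman's rho between summit fragments and control background was 0.686 and 0.703 over the 267 and 120 slow-higher members and 0.627 and 0.626 over the 241 and 164 WT-higher members. These points share their library pair, and the q-value limit of the calls ties both measures together, so the values describe the lists only. From 40 to 49 fragments the median fold was 4.27 and 4.93 in slow-higher and 6.10 and 6.03 in WT-higher lists. From 100 fragments up it was 2.51 and 2.42 in slow-higher lists, over 17 and 11 members, and 4.32 and 3.33 in WT-higher lists, over 12 and 14 members. The class of 100 fragments or more thus had a smaller median fold than that of 40 to 49 in all 4 lists.

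The tallest slow-higher members stood at sites where the WT library was tall too. At chr20:61510604-61510979 the slow libraries had 172 and 180 fragments in pairs 1 and 2, and the WT libraries had a background of 194 and 200, with folds of 2.14 and 1.86. This was the tallest slow-higher member of both pairs, and the WT count was the higher one in both before scaling. At chr10:120801690-120802008 the slow libraries had 134 and 137 fragments against 147 and 138, with folds of 2.19 and 2.05. At chr1:43148074-43148248 the slow libraries had 152 and 126 fragments, and here the WT background was lower, at 82 and 64, with folds of 4.40 and 3.99. Slow exceeded WT in both pairs at this last site even before scaling. At chr10:70742288-70742444, among the highest controls of pair 2, the slow library had 111 fragments against 125 with a fold of 1.83, and in pair 1 it had 99 against 130 with a fold of 1.83. The member at chr21:9827309-9827510 had 119 fragments against 156 in pair 1, a fold of 1.84, and no slow-higher peak in pair 2.

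A single position and strand could contribute 1 read, so the number of fragments over 1 base had a ceiling of 232 and 248 in the slow libraries and 282 and 278 in the WT libraries. The tallest members reached 172 and 180 in slow and 153 and 152 in WT. Treatment fragments lay past the middle of that range at 6 and 4 slow-higher members and at 1 WT-higher member in each pair. The control was past the middle of its own range at 5 and 3 slow-higher and at 0 WT-higher members of either pair. Fold values at these few sites are bounded by duplicate removal, and the size of that effect was not tested.

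The 3 tallest WT-higher members of each list had controls of 15 to 40 fragments in their own pair. At chr17:48226712-48226881 the WT libraries had 153 and 133 fragments against 20 and 19 in slow, with folds of 3.05 and 3.25. At chr3:65342439-65342669 they had 129 in both pairs against 15 and 14, with folds of 3.38 and 4.21. At chr12:19592813-19593166 they had 126 and 101 against 20 and 15, with folds of 2.52 and 3.10. Both WT libraries were above both slow libraries at these 3 sites, before and after scaling. Within each pair this follows from the calls, since all 3 sites were called WT-higher in both pairs. Other tall WT-higher members were found in 1 pair only. They were chr1:29475228-29475412 in pair 2 (152 fragments against 40, fold 1.81), chr6:21596753-21596941 in pair 2 (138 against 35, fold 1.87) and chr7:100731697-100731907 in pair 1 (125 against 20, fold 2.50). In pair 2 this also held for chr6:1611219-1611453, with 133 fragments against 18 and a fold of 3.42, and for chr19:3463214-3463363, with 126 against 28 and a fold of 2.13.

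The other pair of libraries did not enter the choice of a member, so it shows whether tall peaks came back. A member was counted as recurring when a peak of the same direction in the other pair overlapped it by at least 1 bp. In pair 1, 137 of 267 slow-higher members recurred, 51.3% (95% interval 45.1% to 57.4%), against 40.9% of all autosomal slow-higher peaks of that list. In pair 2, 110 of 120 recurred, 91.7% (85.2% to 95.9%), against 58.6% of its list. Among WT-higher members, 119 of 241 recurred in pair 1, 49.4% (42.9% to 55.9%), against 29.8% of the list, and 79 of 164 in pair 2, 48.2% (40.3% to 56.1%), against 38.2%. Intervals are exact (Clopper-Pearson) and cover counting error only. Tall peaks recurred more often than their list as a whole in all 4 lists, by 10.0 to 33.1 percentage points, and a test across peaks was not made because peaks are not replicates of the cells. In none of the 4 lists did a member overlap a peak of the opposite direction in the other pair, which allows shares of up to 1.12% and 2.50% among slow-higher members and up to 1.24% and 1.83% among WT-higher ones. This does not set members apart. Over all autosomal peaks the count was also 0 of 1650 and 0 of 1154 slow-higher and 0 of 870 and 0 of 673 WT-higher ones.

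Folds of recurring members in the other pair come from peaks called there under the same q-value limit. The median fold in the other pair was 3.99 over the 137 slow-higher members of pair 1 and 3.83 over the 110 of pair 2, a mean of 3.91 ± 0.112 (SD, n = 2 pairs). For WT-higher members it was 6.59 over 119 and 5.14 over 79, a mean of 5.86 ± 1.02 (SD, n = 2 pairs). Only members with a peak in the other pair have such a value, so these medians say nothing of the rest. With 5 added to each side of the fold in place of 1, the means were 3.34 for slow-higher and 3.44 for WT-higher members. In the other pair 106 of the 137 and 107 of the 110 slow-higher peaks again had at least 40 fragments, and the lowest had 23 and 37. Of the WT-higher ones, 81 of 119 and 79 of 79 again had at least 40, and the lowest had 21 and 46.

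In the slow-higher list of pair 1, recurrence spread more widely over classes of fold than over classes of height. There 31 of 95 members with a fold under 3 recurred (32.6%), 47 of 105 from 3 to under 5 (44.8%), 35 of 42 from 5 to under 10 (83.3%) and 24 of 25 at 10 or more (96.0%). By height in the same list, 48 of 96 members with 40 to 49 fragments recurred, 46 of 103 with 50 to 69 (44.7%), 30 of 51 with 70 to 99 (58.8%) and 13 of 17 with 100 or more (76.5%). The slow-higher list of pair 2 was high in every class of fold, from 89.2% of 37 members under 3 to 13 of 13 at 10 or more. WT-higher members recurred at 46.7%, 45.3%, 48.6% and 69.2% over the same classes in pair 1 and at 14.3%, 37.7%, 52.9% and 85.7% in pair 2. In all 4 lists the class of 10-fold or more recurred most often, although the lowest WT-higher classes held only 15 and 14 members.

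**Figure D2:**
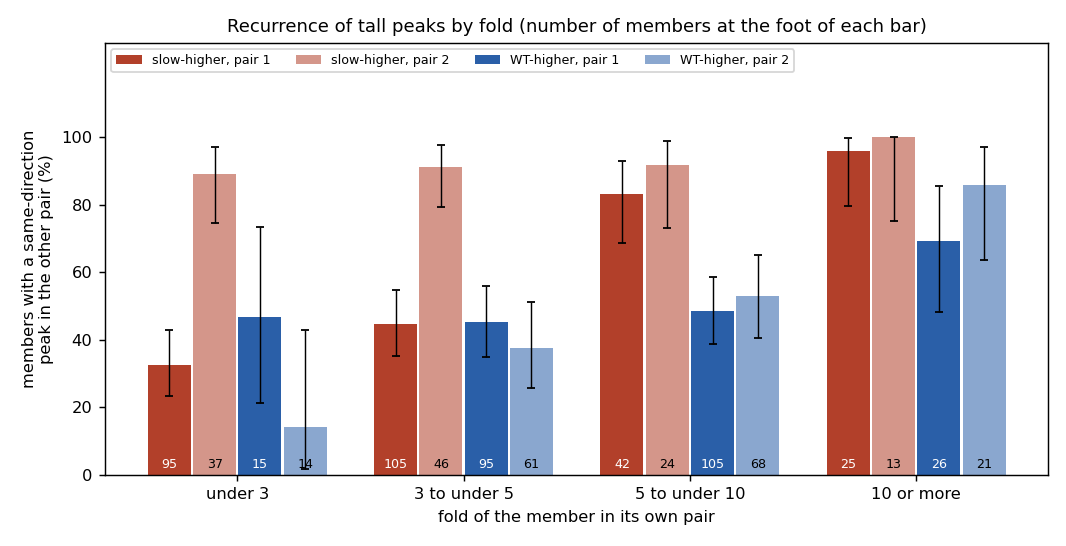
Percentage of members with an overlapping same-direction peak in the other pair (vertical, from 0) by the fold of the member in its own pair (horizontal), for the 4 lists, with exact 95% binomial intervals as error bars and the number of members at the foot of each bar. In pair 1 the slow-higher bars go from 32.6% to 96.0%, while those of pair 2 stay at or above 89.2%.

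Recurrence was also counted by control background. All 13 and 7 slow-higher members with a control of under 5 fragments recurred. Of those with 30 or more, 69 of 168 recurred in pair 1 and 58 of 63 in pair 2. Among WT-higher members a control of under 5 fragments did not go with such recurrence, as 70 of 159 recurred in pair 1 and 52 of 95 in pair 2. In the slow-higher list of pair 1, members that did not recur had a median fold of 3.08 and a median width of 135 bp, against 4.47 and 215 bp for those that did. WT-higher members that did not recur had median folds of 5.18 and 4.61, against 5.50 and 6.51.

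Heights of the non-recurring members were also carried over to the depth of the other pair. Scaled to the depth of the slow library of pair 2, the 130 slow-higher members of pair 1 without a counterpart would have a median of 42.3 fragments, and the 137 with one 44.7. The 85 WT-higher members of pair 2 without a counterpart would have 77.6 in the deeper WT library of pair 1. For the 122 of WT-higher pair 1 the figure is 32.5, and for the 10 of slow-higher pair 2 it is 63.8. The height needed for a call rises with the control background, which had a median of 41.5 fragments at the 130 members, so whether these heights would have been called in the other pair was not tested. A same-direction peak lay within 1 kb of 12 of the 130, 1 of the 10, 11 of the 122 and 8 of the 85, and within 20 kb of 35, 6, 26 and 18. Most non-recurring members thus had no near neighbour of their direction in the other pair either.

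Joining overlapping peaks of the same direction gave 140 slow-higher and 116 WT-higher regions that were found in both pairs with no opposite peak and held a member. Of these, 106 slow-higher and 78 WT-higher regions held a member in both pairs. Summits were close: in 85 of 106 slow-higher and 56 of 78 WT-higher regions the highest peaks of the 2 pairs lay within 20 bp of each other, with median distances of 7 and 6 bp.

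Heights in these regions were close between pairs. The median was 64.5 fragments in pair 1 and 57.5 in pair 2 for slow-higher regions, and 63.5 and 52.0 for WT-higher regions. The median ratio of pair 2 to pair 1 was 0.934 in slow-higher regions, where the slow libraries' depths stood at 0.784, and 0.828 in WT-higher regions, where the WT libraries' depths stood at 0.670. Both ratios cover only regions with at least 40 fragments in both pairs. A further 31 slow-higher and 38 WT-higher regions held a member in pair 1 only, against 3 and 0 in pair 2 only, so this selection can raise the ratios and they are no test against depth. Pearson's r of log2 fragments was 0.95 over the 106 slow-higher and 0.93 over the 78 WT-higher regions, with Spearman's rho of 0.932 and 0.890. Every region shares its sequence and position between pairs and had to reach 40 fragments in both, so these correlations describe the regions and carry no p-value.

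Folds repeated closely in slow-higher regions and loosely in WT-higher regions. On log2 folds Pearson's r was 0.94 over slow-higher and 0.69 over WT-higher regions, and Spearman's rho was 0.877 and 0.663. The folds of the 2 pairs were within a factor of 1.5 in 96 of 106 slow-higher and 52 of 78 WT-higher regions. The ratio of the fold in pair 2 to that in pair 1 ran from 0.491 to 1.98 in slow-higher and from 0.370 to 3.50 in WT-higher regions. WT-higher regions had small control counts, with medians of 5 and 3 slow fragments against 38 and 31.5 WT fragments under slow-higher regions. There a few fragments more or fewer in the control move the fold.

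**Figure D3:**
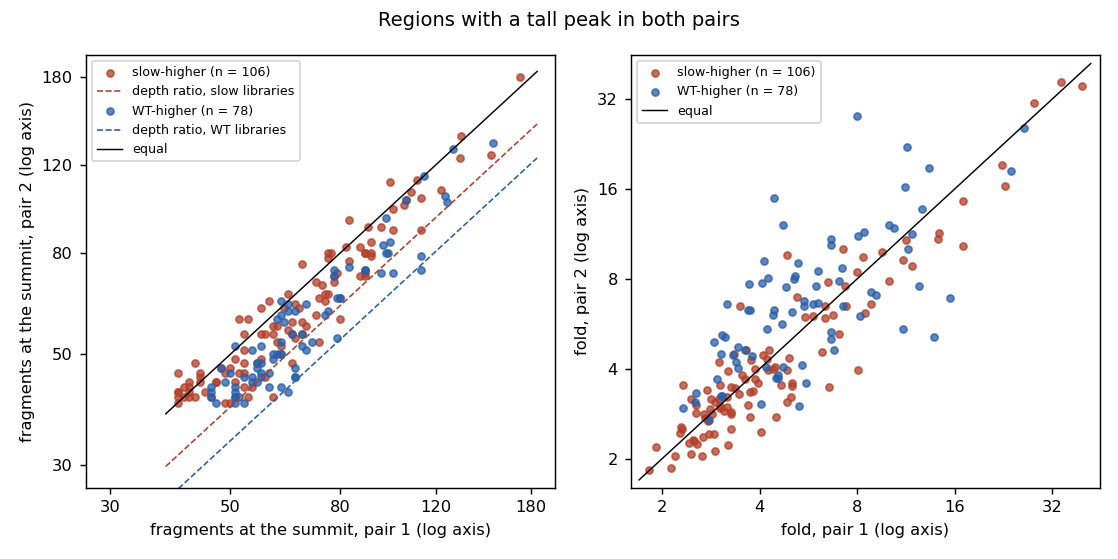
Regions with a member in both pairs, with pair 1 on the horizontal and pair 2 on the vertical log axis, for summit fragments (left) and fold (right); red points are slow-higher (n = 106) and blue points WT-higher (n = 78). The solid line marks equal values and the dashed lines the ratio of library depths (0.784 for slow, 0.670 for WT). Fragment counts lie mostly between the dashed and solid lines, and folds scatter more in WT-higher regions.

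Regions that were both tall and steep were few. A fold of 10 or more in both pairs was found in 10 of the 106 slow-higher and 10 of the 78 WT-higher regions, and the 8 with the highest smaller fold are given for each direction. The smaller fold was under 5 in 77 slow-higher and 41 WT-higher regions, and under 3 in 39 and 6.

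Among the slow-higher regions with a member in both pairs, 3 stood above 25-fold in both. At chr20:57465116-57465511 the slow libraries had 66 and 63 fragments and the WT libraries a background of 1.68 and 1.69, with folds of 39.6 and 35.3. At chr19:11200805-11201705 the slow libraries had 61 and 53 fragments against 2 and 1, with folds of 34.0 and 36.4. At chr17:74722528-74723335 they had 73 and 65 against 4 and 2.36, with folds of 28.0 and 30.9. Both slow libraries were far above both WT libraries at these sites, before any scaling, which the choice by the smaller fold fixes. Their summits lay 11, 6 and 7 bp apart between pairs.

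In the next slow-higher regions the WT background was higher. It was 3 fragments in each pair at chr4:752059-753815, where the slow libraries had 49 and 46 and the folds were 22.4 and 19.2. At chr5:149808484-149809057 the slow libraries had 50 and 47 fragments against 3 and 4, with folds of 22.8 and 16.4. At chr12:6643296-6643505 they had 58 and 45 against 6 and 4.45, with folds of 17.0 and 14.6. No slow library was below 45 fragments and no WT background above 6 at these 3 sites. The last 2 regions combined great height with a sizeable WT count. At chr20:62551319-62551708 the slow libraries had 72 and 60 fragments against 10 and 9, with folds of 14.3 and 11.4, and the summit was at the same base in both pairs. At chr9:42250901-42251161 they had 113 and 89 against 17 and 15, with folds of 14.2 and 10.9.

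Among WT-higher regions, neighbours on chromosome 14 led. At chr14:23588740-23591097 the WT libraries had 125 and 104 fragments against 1 and 1 in slow, with folds of 26.2 and 25.5. At chr14:23587546-23588638 they had 113 and 74 against 1 and 1, with folds of 23.8 and 18.3. Immediately before these, at chr14:23586465-23587386, the WT libraries had 114 fragments in each pair, but the slow background was 5 in pair 1 and 1 in pair 2, so the folds were 7.99 and 28.0. WT height did not differ there between pairs, and the difference in fold came with 4 slow fragments more in pair 1. These 3 peaks were also the widest WT-higher members of pair 1, at 2358, 1093 and 922 bp.

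Elsewhere the WT-higher regions had between 41 and 64 fragments in the WT libraries and at most 1 in slow. At chr2:20870687-20871113 the WT libraries had 62 and 64 fragments against 1 and 0.695, with folds of 13.3 and 18.8. At chr6:17764623-17764814 they had 50 and 46 against 0.705 and 0.695, with folds of 12.7 and 13.7. At chr14:95234668-95234964 they had 53 and 45 against 1 and 0.0281, with folds of 11.4 and 22.1. A background under 1 is the caller's estimate from a wider window and not a count at the summit. At chr1:46073684-46073981 the WT libraries had 55 and 45 fragments against 1 and 1, with folds of 11.8 and 11.3. At chr1:182568232-182568449 they had 52 and 41 against 1 and 0.278, with folds of 11.2 and 16.2. At chr18:13645230-13645567 they had 48 and 47 against 1 and 1, with folds of 10.4 and 11.8. The groups of libraries did not overlap at any of the 16 regions, which the choice of regions fixes. With 5 in place of 1 added to each side, the mean folds of the 16 regions lay between 4.37 and 12.1.

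**Figure D4:**
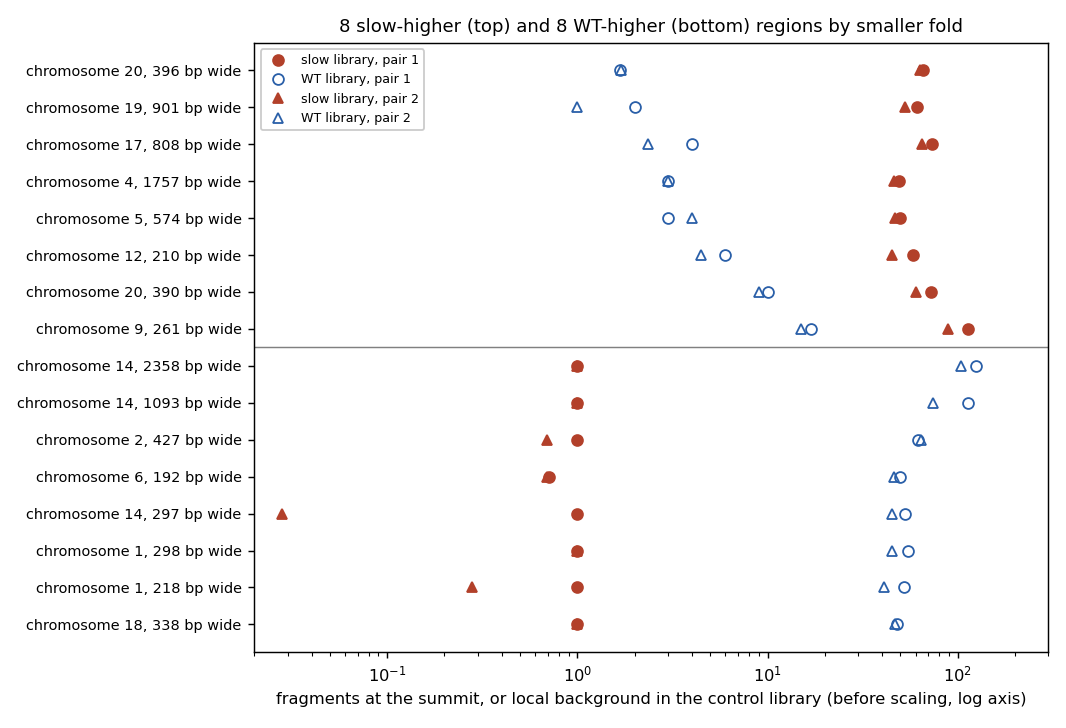
The 8 slow-higher (top) and 8 WT-higher (bottom) regions with the highest smaller fold, by chromosome and width, with fragments at the summit of the treatment library and local background of the control library before scaling on the horizontal log axis. Filled red symbols are slow libraries, open blue symbols WT libraries, circles pair 1 and triangles pair 2. The slow background at WT-higher regions is at most 1 fragment, while the WT background at slow-higher regions runs from 1 to 17.

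By median width the members stood apart little. The median width was 169 and 164 bp for slow-higher members against 143 and 154 bp for the peaks under 40 fragments, and 182 and 192 bp against 173 and 172 bp for WT-higher ones. At least 400 bp wide were 19 of 267, 9 of 120, 16 of 241 and 12 of 164 members. Among the peaks under 40 fragments of the same lists, 51 of 1383, 50 of 1034, 11 of 629 and 14 of 509 were. Wide peaks thus made up a larger share of members than of the other peaks in each list. The widest slow-higher member of each pair was the chromosome 4 peak given above, at 1667 bp in pair 1 and 1757 bp in pair 2. Next in pair 1 was chr1:2212347-2213944 (1598 bp). It had 46 fragments against 5 and a fold of 15.4, and in pair 2 a peak of 39 fragments against 6 with a fold of 10.3. At chr16:89365711-89366673 the peak was 963 bp wide, with 83 and 77 fragments against 22 and 15 and folds of 8.35 and 9.48. At chr19:55608335-55609129 the peak was 795 bp wide in pair 2, with 90 fragments against 25 and a fold of 6.98, and pair 1 had 90 against 40 with a fold of 5.21.

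A few steep members were seen in 1 pair only. The highest such fold was 17.0 at chr7:299778-300087 in WT-higher pair 1, with 50 fragments against 0.268, followed by chr1:33765008-33765174 with 54 against 0.423 and a fold of 16.3. The third in that list, chr8:141669567-141669739, had 44 fragments against 0.423 and a fold of 13.4. In WT-higher pair 2 the highest were chr12:74931592-74931762 (55 fragments, fold 11.5), chr15:66618325-66618513 (44, fold 11.1) and chr1:226923563-226923731 (40, fold 10.1). In slow-higher pair 1, chr15:34729595-34729956 had 66 fragments against 9 and a fold of 14.2. It was the single one of 25 slow-higher members of pair 1 at 10-fold or more without a counterpart. Next came chr15:40615894-40616029 (43 fragments, fold 9.60) and chr2:132249849-132249968 (40 fragments, fold 6.06). In slow-higher pair 2 the highest were chr19:583137-583271 (49 fragments, fold 9.37), chr1:156084479-156084603 (43, fold 6.49) and chr12:58111913-58112047 (58, fold 4.89).

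Most members had no other member of their list within 20 kb. Chaining members of 1 list no more than 20 kb apart gave 207 and 100 slow-higher and 206 and 135 WT-higher loci, and 168, 86, 181 and 115 of these held 1 member. At least 3 members were found in 13 and 4 slow-higher and in 5 and 6 WT-higher loci, with 6 members at most. With peaks under 40 fragments counted as neighbours too, 109 of 267 and 52 of 120 slow-higher members stood alone. The same was so for 144 of 241 and 100 of 164 WT-higher members. Most slow-higher members thus did have another peak of their list within 20 kb. The slow-higher lists also held more autosomal peaks, 1650 and 1154 against 870 and 673 WT-higher ones. The same share over all peaks of a list was not counted, so whether members differ from their lists was not tested.

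In WT-higher loci of 3 or more members, 4 stretches appeared in both pairs. At chr15:96874408-96877540 there were 4 members in pair 1 with 45 to 100 fragments, all recurring, and 3 in pair 2 with 53 to 73. At chr9:138376607-138379968 there were 4 in pair 1 with 53 to 60 fragments and 3 in pair 2 with 44 to 50. At chr1:240255306-240256604 there were 3 in each pair, with 59 to 98 and 43 to 80 fragments. Together with the run on chromosome 14 between 23586458 and 23591097, which held 3 members in pair 1 and 4 in pair 2, these were short runs of 1.30 to 4.63 kb. In pair 2 alone, chr6:21594247-21596941 had 5 members of which 2 recurred, and chr9:89560305-89561988 had 3 of which 2 recurred.

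Slow-higher loci with several members differed in how well they recurred. At chr1:43148074-43166587 there were 3 members in each pair, with 68 to 152 and 55 to 126 fragments, and all recurred. At chr17:43225819-43227656 there were also 3 in each pair, with 40 to 106 and 46 to 102 fragments. In contrast, chr15:72491462-72511541 held 6 members in pair 1, with 40 to 51 fragments and folds from 2.61 to 3.96, of which 1 recurred. Likewise 1 of 4 recurred at chr19:3958688-3976620 (folds 2.48 to 3.18) and 1 of 3 at chr3:184039491-184052814 (folds 2.89 to 4.09). No member of these 3 loci had a fold above 4.09. At chr22:21799323-21804623, 3 of 4 members of pair 1 recurred (44 to 89 fragments, folds 3.37 to 5.54). All 3 members recurred at chr9:140507899-140509540 (44 to 52 fragments, folds 3.48 to 9.82) and at chr1:566455-569571 (41 to 75 fragments, folds 2.65 to 3.03). A single member of 3 recurred at chr16:30535662-30538077 (folds 2.42 to 3.84) and at chr17:46128062-46137067 (folds 2.58 to 2.91).

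Height and fold also parted within single loci. On chromosome 20 the steepest slow-higher member, with 66 fragments against 1.68 and a fold of 39.6, lay in 1 locus with a taller one at chr20:57466726-57466878. That neighbour had 113 and 103 fragments in the slow libraries against 57 and 59 in WT, with folds of 4.66 and 3.54. Summits of these members were 1.45 kb apart in pair 1 and 1.44 kb in pair 2. The WT libraries had a high background at the taller site and almost none at the steeper one.

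Some loci held members of nearly equal height at regular distances. At chr1:228744577-228776030 there were 6 WT-higher members in pair 1 with 41 to 48 fragments, 2 or 3 control fragments and folds from 4.47 to 6.65, and no peak in pair 2. Distances between their summits were 2246, 4476, 2247, 11160 and 11170 bp. At chr19:50602091-50629768 there were 5 slow-higher members in each pair, with 40 to 43 and 40 to 44 fragments and folds of 7.24 to 11.3 and 8.45 to 10.8. Peaks of the pair 2 list in that locus lay 3065, 3069, 5332, 5365, 5332 and 5363 bp apart. At chr19:48407563-48439624 there were 4 members in pair 1 and 3 in pair 2, with 42 to 46 and 41 to 44 fragments, and peaks lay between 5035 and 5390 bp apart in both lists. How the aligner placed reads that match several positions is not given in the sources used here. Whether the members of such a locus share sequence was not tested, so they may not be separate sites.

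Chromosome 19 held a large share of the slow-higher members. There were 63 of 267 members there in pair 1 (23.6%) and 31 of 120 in pair 2 (25.8%), against 12.8% and 12.3% of all autosomal slow-higher peaks of those lists. WT-higher members there numbered 10 of 241 (4.15%) and 7 of 164 (4.27%), against 4.48% and 5.5% of all autosomal WT-higher peaks. Slow-higher members on chromosome 19 recurred in 57.1% and 93.5% of cases, against 49.5% and 91.0% on the other autosomes, and their median folds were 3.63 and 4.28 against 3.42 and 3.54. Among regions with a member in both pairs, 29 of 106 slow-higher and 3 of 78 WT-higher ones were on chromosome 19. The slow-higher values for chromosome 19 include the regularly spaced loci at chr19:48407563-48439624 and chr19:50602091-50629768, whose members may not be separate sites. Those loci held 4 and 5 members in pair 1 and 3 and 5 in pair 2, all recurring. Values without them were not computed. Chromosome 17 was next in number, with 28 and 13 slow-higher and 10 and 10 WT-higher members. Its share of slow-higher members, 10.5% and 10.8%, was near its 9.88% and 9.62% of all autosomal slow-higher peaks. For WT-higher members its shares were 4.15% and 6.1%, against 5.17% and 5.35% of the lists. Slow-higher members outnumbered WT-higher ones in both pairs on 6 autosomes (2, 3, 13, 17, 19 and 20), WT-higher members did so on 11, and 5 went neither way. This split was counted with the minimum in unscaled fragments, and it differed in part over all autosomal peaks. Counts per chromosome with the minimum on the scaled pileup were not made. Over all autosomal peaks, slow-higher ones led in both pairs on those 6. They also led on chromosomes 1, 5, 6, 7 and 11, where WT-higher members were more numerous. On chromosomes 4, 10, 12 and 14 WT-higher peaks led by either count. Chromosome 18 had no slow-higher member in either pair and 7 WT-higher ones over both. Its peaks of any height numbered 35 and 21 slow-higher and 20 and 21 WT-higher in pairs 1 and 2.

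**Figure D5:**
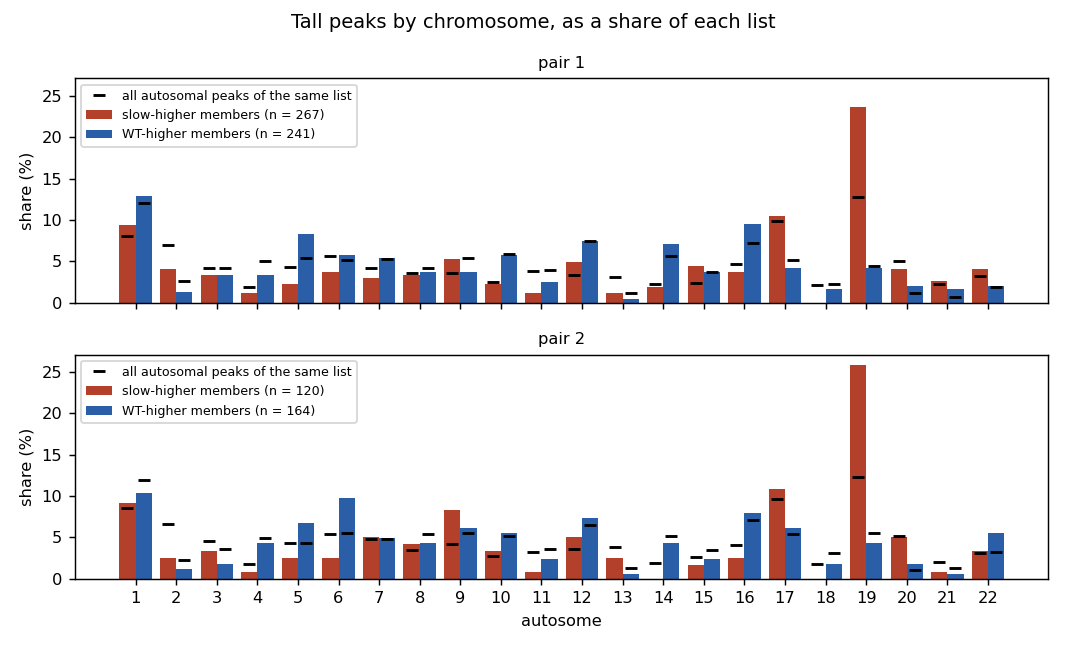
Share of the members of each list (bars, percent, from 0) on each autosome for pair 1 (top) and pair 2 (bottom), with slow-higher in red and WT-higher in blue. Black marks give the share of all autosomal peaks of the same list. Chromosome 19 holds 23.6% and 25.8% of slow-higher members, above its mark of 12.8% and 12.3%. It holds 4.15% and 4.27% of WT-higher members, where its mark is at 4.48% and 5.5%.

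The balance of directions depended on the scale of the minimum. Counted in fragments, slow-higher members were 52.6% of members in pair 1 (95% interval 48.1% to 57.0%) and 42.3% in pair 2 (36.4% to 48.2%), a mean of 47.4% ± 7.29 (SD, n = 2 pairs). Over all autosomal peaks the shares were 65.5% and 63.2%. With the minimum set on the scaled pileup as deposited, 267 slow-higher and 15 WT-higher peaks passed in pair 1 and 120 and 19 in pair 2, shares of 94.7% and 86.3%. The mean of the pairs thus lay on the other side of 50% on that scale, and it also did so at 53.4% where −log10 q had to reach 5 and at 52.6% without pair 2. Without chromosome 19 the shares in fragments were 46.9% and 36.2%. No test was made, since the rule sets these counts and an exact sign-flip test over 2 pairs cannot give a two-sided p below 0.5.

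Close neighbours of opposite direction were counted among members only. The same count over all autosomal peaks was not made, so whether members differ from their lists in this was not tested. Within 20 kb, 1 such neighbourhood was found in each pair. In pair 1 a slow-higher member at chr19:39888187-39888344, with 53 fragments against 51 and a fold of 2.45, lay 15.3 kb from a WT-higher member at chr19:39903668-39903816, with 43 against 1.41 and a fold of 7.76. In pair 2 a slow-higher member at chr16:30369294-30369422, with 49 fragments against 35 and a fold of 2.80, lay 11.5 kb from a WT-higher one at chr16:30380895-30381140, with 75 against 12 and a fold of 2.86. Neither neighbourhood had members of both directions in both pairs. On chromosome 19, however, pair 2 also held both peaks. The slow-higher one was a member with 48 fragments and a fold of 3.17. The WT-higher one had a fold of 6.28 but only 24 fragments, under the minimum.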

How the data were processed

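The 4 lists came from 4 libraries. Reads were aligned with TopHat2 to hg19, per the submitters' processing notes. Per the file headers, the authors called peaks with MACS 2.1.1.20160309, keeping q-values up to 0.01, 1 library against 1 library, without pooling, with background windows of 1000 and 10000 bp. The deposited pileup is a coverage signal over the summit in the treatment library, with the deeper library scaled down, per the file headers. The deposited fold is a ratio to the control background with 1 added to each side. The authors' p-values and q-values are given as −log10 in 2 deposited columns without legible names, identified from the caller's column order and from their values.

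From these, WT pileups were multiplied by the ratio of filtered reads, and all values were whole within 0.05. Control background was computed as (pileup + 1) over fold, minus 1, and came out whole at 715 of 792 members. Regions named in the text are, per direction, the 8 with a member in both pairs and the highest smaller fold, per list the 3 members with most fragments, highest control, greatest width and highest fold without a counterpart, and loci with 3 or more members. Members and lists were chosen with earlier results of these data known. The overlap rules were tested on simulated lists of 1000 peaks and returned the planted number in 8 of 8 checks. Python 3.11.15, pandas 2.3.3, numpy 2.4.6, scipy 1.17.1 and matplotlib 3.10.9 were used. Alternatives covered the fragment minimum, its scale, the q limit, the overlap rule, the pseudocount, sequences left out and each pair left out.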

Additional observations from a re-analysis of the deposited data

Results flagged for a closer look

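Sequence outside the members also held slow-higher peaks with at least 40 fragments, in data that no comparison above used, and the WT-higher lists held 0 there. The counts over both pairs were 102 in the chromosome 19 stretches left out by the rule, 7 on chromosome Y, 36 on the mitochondrial genome and 37 on unplaced contigs. In the stretches the median folds were 23.2 and 24.0 in pairs 1 and 2, above the members' 3.44 and 3.65, while on the mitochondrial genome they were 2.48 and 2.79. Chromosome X held peaks of both directions, 9 and 5 slow-higher and 12 and 7 WT-higher.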

How the results depend on the processing

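Of 102 values under alternatives, 22 moved. The mean slow-higher share of 47.4% crossed 50% on the scaled pileup, where −log10 q had to reach 5 (53.4%) and without pair 2 (52.6%), so which direction held more members depends on these choices. At least 30 fragments gave 187 slow-higher members in pair 2 and 376 and 264 WT-higher members in pairs 1 and 2. At least 50 gave 171 and 74 slow-higher and 144 and 96 WT-higher members, and 58.3% recurrence in WT-higher pair 1. The scaled pileup as the measure left 15 and 19 WT-higher members, with 73.3% recurrence in pair 1, and slow-higher shares of 94.7% and 86.3%, a mean of 90.5%. A −log10 q of at least 5 gave a slow-higher share of 60.2% in pair 1 and median other-pair folds of 4.25 (slow-higher) and 7.28 (WT-higher). Reciprocal overlap of 50% put WT-higher recurrence at 40.2% in both pairs. A pseudocount of 5 gave other-pair folds of 3.34 and 3.44, which nearly removes the difference between directions, and brought the 16 named regions to between 4.37 and 12.1. Counting only members with more fragments than the control before scaling, an alternative chosen after seeing the data, gave 4.12 for slow-higher members. The other alternative chosen then, the minimum without rounding, drops the 16 WT-higher members at exactly 40 fragments. Leaving out either pair gave slow-higher shares from 42.3% to 52.6% and other-pair folds from 3.83 to 3.99 (slow-higher) and 5.14 to 6.59 (WT-higher). No paired analysis was possible because the lists hold called peaks only and a local background, not a count, for the control library. Each fold is already a value within a pair. Alternatives on annotation and motif were not run, since no hg19 genome was used here. Beyond the alternatives' own construction, the cause of each move was not tested. Low control counts limit the folds of WT-higher members, and each comparison rests on 2 pairs.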
